A study of Mus musculus with 2 samples.

Results

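The nuclear-encoded oxidative phosphorylation genes were examined in the postpartum mouse brain. Members were the probes, other than controls, on both arrays whose gene name begins with Nduf, Sdha to Sdhd, Uqcr, Cox4i, Cox5, Cox6, Cox7, Cox8 or Atp5, or is Cycs or Cyc1. The rule found 83 genes with 115 probes, out of 27962 named genes and 41174 probes. Of these, by name, 37 genes belonged to complex I, 4 to complex II, 8 to complex III, 17 to complex IV, 16 to complex V and 1, Cycs, encodes cytochrome c. Complex I here includes the assembly factor Ndufaf1, and complex V the coupling factor Atp5s.

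Oxidative phosphorylation makes most of the ATP of the brain in the inner mitochondrial membrane. Complexes I and II take electrons from NADH and succinate, complex III passes them to cytochrome c, complex IV reduces oxygen, and complex V, the ATP synthase, uses the proton gradient that complexes I, III and IV build. Most subunits are encoded in the nucleus and assembled with a few encoded in mitochondrial DNA, and the transcription factors NRF1 and GABPA (NRF2) are known activators of many of the nuclear genes.

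The study asked which transcripts differ in the brain of dams that lack TDAG51 (Phlda1), a member of the pleckstrin homology-like domain family, and whether a brain transgene restores them. All samples came from female C57BL/6J mice, 8 weeks old, on postpartum day 0, and were total RNA of brain. Array 1 held a TDAG51 knockout sample (TDAG51-/-) in Cy3 and a TDAG51 wild-type sample (TDAG51+/+) in Cy5. Array 2 held a TDAG51-/- sample in Cy3 again and, in Cy5, a sample labelled as TDAG51 knockout with the TDAG51 transgene (TDAG51-/-Tg2), in which murine TDAG51 is driven by the BAI1-AP4 promoter, active mainly in cerebral cortex and hippocampus, in a line from 1 founder. The number of dams in each sample is not given. Each comparison rests on 1 array without a swap of dyes, so the spread between animals was not measured, no test was possible, dye and genotype cannot be told apart, and both comparisons share the knockout genotype in Cy3. Ratios are TDAG51-/- over the control throughout, on the log2 scale after loess normalization, and normalized intensity is the level of a channel after scaling both arrays to a common distribution. Spots that repeat 1 probe on an array gauge the measurement error alone: the SD of their log2 ratios had a median of 0.063 on array 1 and 0.065 on array 2 over 245 probes with at least 5 spots. Each member probe had 1 spot on each array, and 22 of the 114 with coordinates span an intron.

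The Phlda1 probe read a mean intensity of 7283 in the TDAG51+/+ sample and 350.5 in the TDAG51-/- sample of array 1, which was 17.3-fold lower after normalization. On array 2 it read 44.1 in the TDAG51-/- sample and 50.5 in the TDAG51-/-Tg2 sample, neither well above background. Whether this probe lies in the transgene was not determined, so the transgene was not checked by it. Regional markers separated the knockout channels from both controls. All 10 hindbrain and brainstem genes were at least 1.5-fold higher in TDAG51-/- in both comparisons (median log2 ratio 2.72 and 2.82). So were 7 of 7 measurable cerebellar genes (2.20 and 2.26), and 7.9% of all measurable probes. At least 1.5-fold lower in both were 8 of 10 striatal genes (-1.44 and -1.44) and 4 of 8 measurable cortical and hippocampal genes. The share of all measurable probes was 5.44%. The summed normalized intensity of the hindbrain list was 11197 and 11736 in the TDAG51-/- samples, 2045 in TDAG51+/+ and 1815 in TDAG51-/-Tg2, and that of the striatal list was 64541, 61097, 155663 and 157288 in the same order. Their part in the results below was not tested. In bulk tissue, fewer cells of a type and less RNA per cell cannot be told apart.

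Of the 83 members, 68 were matched to a promoter in the RefSeq table of GRCm38.p6, and the 250 bases before the start of each were searched on both strands for the core of an NRF1 site (GCATGCGC), of a GABPA site (CCGGAAG) and of a YY1 site (AAGATGGC), which do not overlap one another as letters. The NRF1 core was present in 12.3% of the 73 promoters of members and in 2.26% of all 32851 promoters in the table, the GABPA core in 17.8% and 6.91%, and the YY1 core in 1.37% and 1.56%. The median GC content was 56.4% in the promoters of members and 52.4% in all promoters, and its part in these shares was not tested. The 7 promoters printed here belong to genes whose brightest probe lay on the same side of 0 in both comparisons. The dimmest probe of Ndufab1 went the other way. First come those of 3 genes that were higher in TDAG51-/- by that probe and then those of 4 that were lower, with matches in capitals. They lie at chr7:122101849-122102098 (minus strand) for Ndufab1, chr15:82354292-82354541 (minus strand) for Ndufa6, chr7:30183921-30184170 (plus strand) for Cox7a1, chrX:106015450-106015699 (plus strand) for Cox7b, chr17:56717512-56717761 (plus strand) for Ndufa11, chr7:30626115-30626364 (minus strand) for Cox6b1 and chr4:140961021-140961270 (plus strand) for Sdhb.
Ndufab1: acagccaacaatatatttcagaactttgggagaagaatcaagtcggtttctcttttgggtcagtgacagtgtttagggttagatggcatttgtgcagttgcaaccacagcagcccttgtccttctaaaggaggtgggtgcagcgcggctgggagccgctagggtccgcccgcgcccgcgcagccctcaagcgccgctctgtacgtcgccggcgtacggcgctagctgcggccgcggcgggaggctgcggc
Ndufa6: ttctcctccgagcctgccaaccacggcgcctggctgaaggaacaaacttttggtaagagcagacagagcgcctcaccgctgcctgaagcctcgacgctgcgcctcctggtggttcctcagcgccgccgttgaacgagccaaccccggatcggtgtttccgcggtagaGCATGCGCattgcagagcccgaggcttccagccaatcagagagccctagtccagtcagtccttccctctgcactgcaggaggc
Cox7a1: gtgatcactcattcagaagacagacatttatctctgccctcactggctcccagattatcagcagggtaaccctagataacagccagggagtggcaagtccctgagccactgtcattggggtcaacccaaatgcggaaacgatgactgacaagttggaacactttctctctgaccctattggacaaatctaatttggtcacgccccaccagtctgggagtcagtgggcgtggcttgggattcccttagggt
Cox7b: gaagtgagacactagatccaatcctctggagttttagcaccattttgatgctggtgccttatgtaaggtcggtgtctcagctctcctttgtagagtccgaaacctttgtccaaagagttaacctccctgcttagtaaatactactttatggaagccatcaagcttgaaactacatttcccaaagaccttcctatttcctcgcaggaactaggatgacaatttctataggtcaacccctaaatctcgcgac
Ndufa11: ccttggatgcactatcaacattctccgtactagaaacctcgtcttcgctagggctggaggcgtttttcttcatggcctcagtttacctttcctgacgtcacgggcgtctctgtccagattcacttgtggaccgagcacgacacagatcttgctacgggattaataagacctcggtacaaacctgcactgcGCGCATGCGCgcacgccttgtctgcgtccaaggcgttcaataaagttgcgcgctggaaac
Cox6b1: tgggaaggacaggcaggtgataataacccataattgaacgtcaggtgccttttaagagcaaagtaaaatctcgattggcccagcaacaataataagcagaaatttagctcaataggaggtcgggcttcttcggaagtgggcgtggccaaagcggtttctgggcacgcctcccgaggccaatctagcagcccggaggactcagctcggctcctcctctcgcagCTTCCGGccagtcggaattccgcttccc
Sdhb: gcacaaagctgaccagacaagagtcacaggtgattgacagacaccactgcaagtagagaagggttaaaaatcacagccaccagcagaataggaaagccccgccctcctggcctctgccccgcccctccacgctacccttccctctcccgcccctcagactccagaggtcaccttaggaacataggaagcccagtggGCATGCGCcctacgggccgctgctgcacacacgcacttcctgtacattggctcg
The capitals mark the NRF1 core in Ndufa6, Ndufa11 (on both strands, overlapping) and Sdhb and the GABPA core in Cox6b1, and the other 3 windows held none of these letters. A match is a description of the letters and not of binding. The NRF1 core was thus found both before Ndufa6, which was higher in TDAG51-/-, and before Ndufa11 and Sdhb, which were lower. Taking the median of each gene's probes, the 9 measurable genes with the NRF1 core stood at a median of -0.41 relative to TDAG51+/+ and of -0.37 relative to TDAG51-/-Tg2 (log2 ratios), and the 56 without it at -0.22 and -0.04. For the GABPA core the values were -0.40 and -0.06 over 13 genes with it and -0.23 and -0.08 over 52 without.

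Nearly all member probes could be read. Of 115 probes, 108 (79 genes) read well above background in 1 or both channels of each array and were saturated in none, and these are the measurable members below. In Cy5, 4.35% of the member probes were saturated on array 1 and 2.61% on array 2, against 1.17% and 1.24% of all probes. In Cy3, 0 and 1 member probes were saturated. The saturated probes belonged to complex IV and complex V. Both probes of Cox7a2, the widely expressed isoform of subunit VIIa, were saturated in Cy5 on both arrays, and were at least 1.44-fold and 1.36-fold lower in TDAG51-/- than in TDAG51+/+. On array 2 the bound for the first was 1.01-fold, also lower in TDAG51-/-, and the second, at 79590 in TDAG51-/- and 50464 in the saturated TDAG51-/-Tg2 channel, has no fold. The TDAG51-/- level of the second was 1.07 log2 units higher on array 2 than on array 1. Cox5b, a structural subunit of complex IV, was saturated in the TDAG51+/+ channel and at least 1.33-fold lower in TDAG51-/-. On array 2, where it was not saturated, it read 46336 in TDAG51-/- and 33367 in TDAG51-/-Tg2 (normalized intensity), a log2 ratio of 0.47 in the other direction. The brighter probe of Atp5g2, one of 3 genes for the c-ring of the ATP synthase, was saturated in TDAG51+/+ and at least 1.93-fold lower in TDAG51-/-. On array 2, where it was not saturated, it was 1.70-fold lower in TDAG51-/- than in TDAG51-/-Tg2 (log2 ratio -0.76). Atp5o, the stalk subunit known as OSCP, was saturated in Cy5 on both arrays and also in Cy3 on array 2 and has no fold here. The remaining unread probes, 1 of Ndufs1 and that of Cox8c, were near background. The Ndufs1 probe that was near background in every channel lies at chr1:63398719-63398778 of mm7 on the plus strand, whereas the readable Ndufs1 probe lies at chr1:63384448-63384507 on the minus strand.

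Most members were slightly lower in TDAG51-/- than in TDAG51+/+, and the shift was smaller against TDAG51-/-Tg2. Of 108 measurable probes, 82 were below 0 against TDAG51+/+, with a median log2 ratio of -0.26 (quartiles -0.46 and -0.01), whereas 48.4% of all 32708 measurable probes were below 0, with a median of 0.02. Against TDAG51-/-Tg2, 60 were below 0 and the median was -0.07 (quartiles -0.27 and 0.17), with 48.5% of all probes below 0 and a median of 0.02. A total of 59 probes were below 0 in both comparisons, 25 above 0 in both and 24 on opposite sides. Of all 32708 measurable probes, 11380 were below 0 in both, 12400 above 0 in both and 8928 on opposite sides. Changes of at least 2-fold were few. Against TDAG51+/+, 0 member probes were at least 2-fold higher, where 5.16% of all probes were, and 2 (Cox6b1 and Atp5j2) were at least 2-fold lower, where 4.3% were. Against TDAG51-/-Tg2, 3 were at least 2-fold higher, where 4.86% of all probes were, and 0 were at least 2-fold lower, where 3.79% were. These 3 were dim probes of Ndufs4, Atp5f1 and Ndufb8, of which those of Ndufs4 and Atp5f1 were near background in TDAG51-/-Tg2. The count was 1 with both channels required to be above background and 0 with the brightest probe of each gene, the median of its probes or RefSeq probes alone. At 1.5-fold, 18 of the 108 were lower than in TDAG51+/+, where 12.5% of all probes were, and 3 were higher, where 14.3% were. Relative to TDAG51-/-Tg2, 5 were lower, where 11.8% of all probes were, and 7 were higher, where 14.1% were. Of the 108, only 3 probes were at least 1.5-fold lower in both comparisons, where 5.44% of all probes were, and 2 at least 1.5-fold higher in both, where 7.9% were. The brighter probe of Atp5g2, left out of the 108 because it was saturated on array 1, was also at least 1.5-fold lower in both.

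The size of the shift depended on the normalization, which moved the members further than the typical probe. The members were bright, with a median mean intensity of 7442 in Cy3 and 13945 in Cy5 on array 1, and on both arrays the loess curve fell below 0 as intensity rose. Loess raised the members' ratios by a median of 0.46 on array 1 and 0.49 on array 2, and those of all measurable probes by 0.16 and 0.22. With the arrays only centred on their medians, the members' median was -0.48 against TDAG51+/+ and -0.29 against TDAG51-/-Tg2, with 88.0% and 78.7% of the probes below 0 (75.9% and 55.6% with loess), and 7 probes rather than 2 were at least 2-fold lower than in TDAG51+/+. The members' median was below 0 in both comparisons under every scaling tried, and that of all probes was between 0.00 and 0.03 except without normalization, where it was -0.18 and -0.24.

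**Figure D1:**
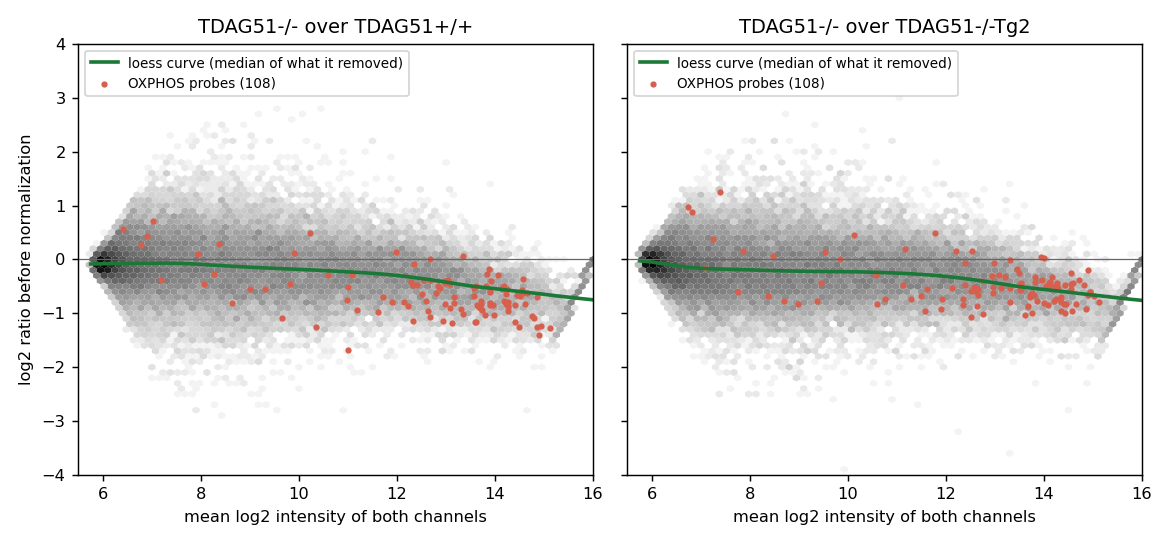
Log2 ratio of TDAG51-/- over control before normalization against the mean log2 intensity of both channels, for array 1 (left) and array 2 (right). Grey shading is the number of probes (log scale), the green line the median of what loess removed, and the red points the 108 measurable member probes, most of which lie at high intensity where the line runs below 0.

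**Figure D2:**
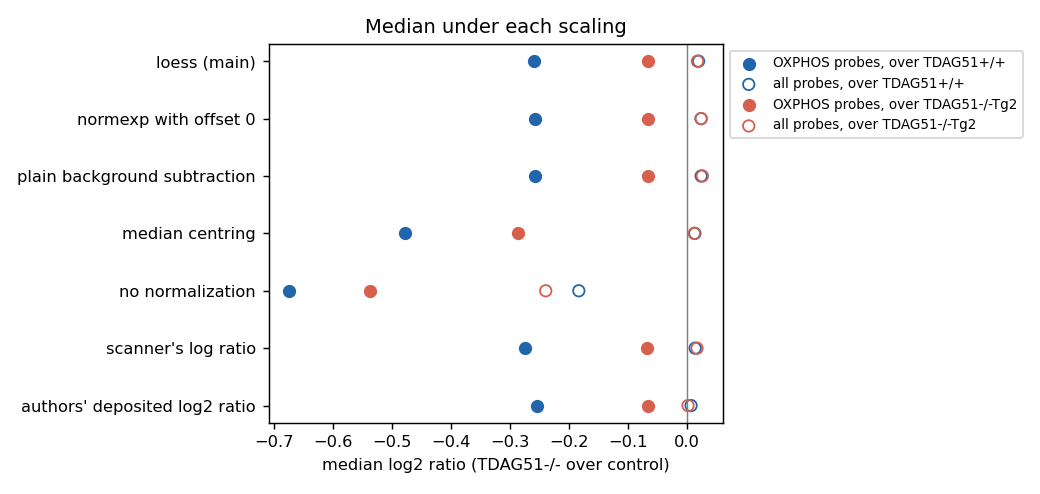
Median log2 ratio of the 108 measurable member probes (filled) and of all measurable probes (open) under 7 scalings, over TDAG51+/+ (blue) and over TDAG51-/-Tg2 (red). The filled points lie between -0.67 and -0.06, to the left of the open points in every row.

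By complex, complex IV had the lowest median in both comparisons after loess, and complex II and cytochrome c the highest, each from few probes. Against TDAG51+/+ this order depended on the scaling: with median centring complex III was lowest, at -0.65 (complex IV -0.60), and cytochrome c, at -0.44, was no longer among the highest (complex I -0.43), and without normalization complex III was again lowest, at -0.85 (complex IV -0.79). The median log2 ratio against TDAG51+/+ was -0.25 in complex I (51 probes), -0.13 in complex II (6), -0.31 in complex III (11), -0.02 for cytochrome c (3), -0.46 in complex IV (15) and -0.26 in complex V (22). Against TDAG51-/-Tg2 the medians in the same order were -0.05, 0.12, -0.08, 0.08, -0.25 and -0.07. Probes below 0 against TDAG51+/+ were 37 of 51 in complex I, 5 of 6 in complex II, 8 of 11 in complex III, 12 of 15 in complex IV and 18 of 22 in complex V, and against TDAG51-/-Tg2 they were 28, 3, 6, 10 and 12. The ranges of the complexes overlapped. The sign of the medians against TDAG51-/-Tg2 was not stable for complexes II, III and V and cytochrome c, for each of which at least 1 other setting gave the opposite sign.

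**Figure D3:**
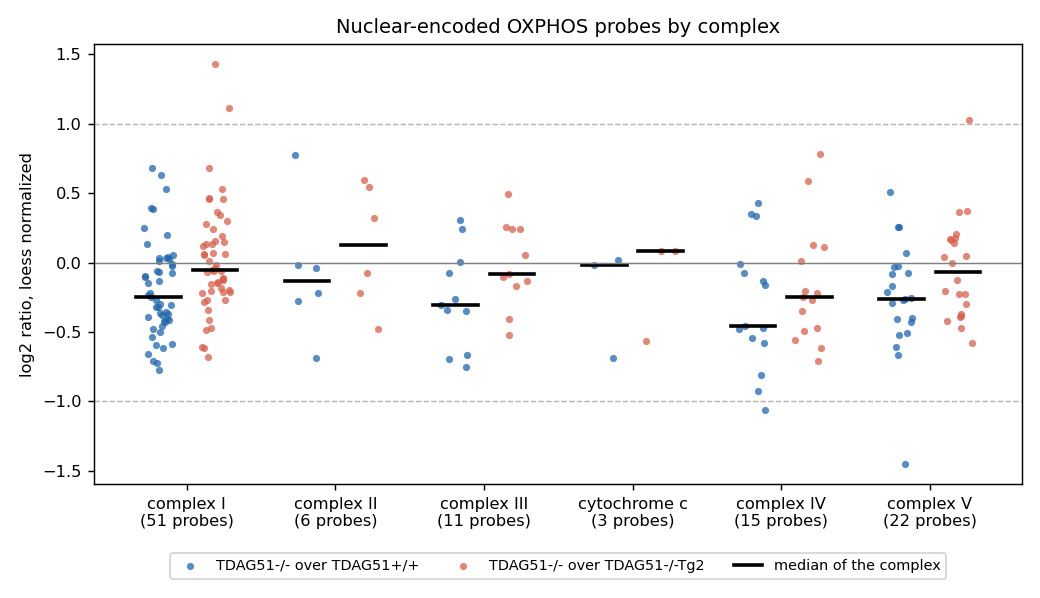
Log2 ratio of each measurable member probe by complex, with 1 point for each probe, over TDAG51+/+ (blue) and over TDAG51-/-Tg2 (red), black bars at the medians and dashed lines at 2-fold. After loess the medians of complex IV, -0.46 and -0.25, are the lowest (over TDAG51+/+, complex III is lower with median centring, -0.65 against -0.60, and without normalization, -0.85 against -0.79), and points of every complex except cytochrome c extend to either side of 0 by more than 0.4 in at least 1 comparison.

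In complex I, both probes of Ndufa11 were at least 1.5-fold lower in TDAG51-/- in both comparisons, and 3 of the 4 probes of Ndufab1 were higher. Ndufa11 encodes an accessory subunit of the membrane arm. Its brighter probe had a normalized intensity of 5214 in TDAG51-/- and 7827 in TDAG51+/+ on array 1, and of 5561 in TDAG51-/- and 8467 in TDAG51-/-Tg2 on array 2. The log2 ratios were -0.59 and -0.61, and those of the dimmer probe were -0.71 and -0.68. Both TDAG51-/- channels were thus below both controls, although the probes overlap (chr17:54928975-54929034 and chr17:54928965-54929024 of mm7) and do not measure the transcript independently. Ndufab1 encodes the mitochondrial acyl carrier protein, which is also a subunit of complex I. Its brightest probe (chr7:118015882-118015941) read 12586 in TDAG51-/- and 8700 in TDAG51+/+, and 11732 in TDAG51-/- and 8507 in TDAG51-/-Tg2. The log2 ratios were 0.53 and 0.46, those of the probe at chr7:118011283-118011342 were 0.68 and 0.68, and those of the probe at chr7:118012418-118012477 were 0.39 and 0.28. The fourth probe (chr7:118014390-118014449), the dimmest, went the other way with -0.32 and -0.41. Ndufa6, another accessory subunit, was also higher in both, with 7561 in TDAG51-/- and 5784 in TDAG51+/+, and 7053 in TDAG51-/- and 4876 in TDAG51-/-Tg2 (log2 ratios 0.39 and 0.53).

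The 2 probes of Ndufs4, an accessory subunit whose loss causes Leigh-like disease in mice, disagreed. The brighter one (chr13:111460869-111460928) read 449.1 in TDAG51-/- and 597.1 in TDAG51+/+, and 402.7 in TDAG51-/- and 617.1 in TDAG51-/-Tg2, giving -0.41 and -0.62. The other (chr13:111459012-111459071) was near background in both control channels and was therefore brighter in TDAG51-/- by at least 1.51-fold on array 1 and by at least 2.03-fold on array 2. Ndufb8, of the membrane arm, had a bright probe, which spans an intron in mm7, with log2 ratios of -0.38 and -0.22, and a dim probe at chr19:44442601-44442660 with 0.20 and 1.43. The 7 measurable probes for core subunits, which include those that carry the flavin and the iron-sulfur clusters, had medians of -0.10 and -0.02, and the 43 for accessory subunits -0.30 and -0.06. With median centring the medians were -0.32 and -0.29 for core subunits and -0.50 and -0.26 for accessory subunits. All 3 probes of Ndufs6 lay between 0.01 and 0.06 in both comparisons. Ndufc2 was on opposite sides: it read 23715 in TDAG51-/- and 40491 in TDAG51+/+ (-0.77), but 35636 in TDAG51-/- and 25903 in TDAG51-/-Tg2 (0.46).

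In complex II, which is also an enzyme of the TCA cycle, Sdhb, the iron-sulfur subunit, was lowest. It read 5177 in TDAG51-/- and 8354 in TDAG51+/+, and 5377 in TDAG51-/- and 7475 in TDAG51-/-Tg2, with log2 ratios of -0.69 and -0.48. The brighter probe of the membrane anchor Sdhc was near 0 (-0.02 and -0.08), whereas its dim probe, at 172.2 and 181.1 in TDAG51-/- against 100.5 in TDAG51+/+ and 124.0 in TDAG51-/-Tg2, gave 0.78 and 0.55. The other anchor, Sdhd, was on opposite sides with -0.22 and 0.60, and its 2 TDAG51-/- values were close (18460 and 19240).

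In complex III, Uqcr (now Uqcr11), a small accessory subunit, was lowest by the mean of both comparisons, at 9925 in TDAG51-/- and 15741 in TDAG51+/+, and 10457 in TDAG51-/- and 14982 in TDAG51-/-Tg2 (-0.67 and -0.52). Both probes of the hinge protein Uqcrh were below it against TDAG51+/+, with -0.75 and -0.70, and above it against TDAG51-/-Tg2, with -0.17 and -0.41. Uqcrfs1, the Rieske iron-sulfur protein, was highest by the same mean, at 5678 in TDAG51-/- and 4789 in TDAG51+/+, and 5509 in TDAG51-/- and 3918 in TDAG51-/-Tg2 (0.25 and 0.49). Cyc1, which encodes cytochrome c1, read 11760 and 14951, and 12546 and 10500, in the same order (-0.35 and 0.26). For Cycs, the soluble carrier between complexes III and IV, the overlapping bright probes gave -0.02 and 0.02 against TDAG51+/+ and 0.08 and 0.08 against TDAG51-/-Tg2, and the third, dimmer probe -0.69 and -0.56.

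In complex IV, several small subunits were lower in TDAG51-/- in both comparisons and Cox7a1 was higher. Cox7b was the only member read by 1 probe that was at least 1.5-fold lower in both. It read 3927 in TDAG51-/- and 6877 in TDAG51+/+, and 4515 in TDAG51-/- and 7372 in TDAG51-/-Tg2 (-0.81 and -0.71). Cox6b1, which faces the intermembrane space, read 904.8 and 1891, and 1431 and 2017 (-1.06 and -0.49), so that its 2 TDAG51-/- values differed by 0.66 on the log2 scale. The ubiquitous subunit Cox6a1 had ratios of -0.48 and -0.61. Cox5a, a subunit on the matrix side, was higher, with 16979 in TDAG51-/- and 13347 in TDAG51+/+, and 19830 in TDAG51-/- and 13214 in TDAG51-/-Tg2 (0.35 and 0.59). Its second probe, which was dim, gave 0.34 and 0.01.

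Isoforms of complex IV with a restricted distribution did not move as a group. Cox7a1, the isoform of heart and skeletal muscle, read 4764 in TDAG51-/- and 3535 in TDAG51+/+, and 4587 in TDAG51-/- and 2665 in TDAG51-/-Tg2 (0.43 and 0.78), whereas its widely expressed counterpart Cox7a2 was saturated. The muscle isoform Cox6a2 was lower, at 589.7 and 1119, and 542.1 and 796.1 (-0.92 and -0.55), in the same direction as Cox6a1. The lung isoform Cox4i2 gave -0.16 and -0.47 beside -0.54 and -0.25 for Cox4i1. The testis isoform Cox6b2 gave -0.13 and 0.11, and Cox8b, of rodent muscle, -0.01 and -0.22 beside -0.47 and -0.21 for Cox8a. Cox8c, of testis, was near background in 3 channels and at least 2.63-fold lower in TDAG51-/- than in TDAG51-/-Tg2. Ndufa4, counted here by its name in complex I and now known as a subunit of complex IV, gave -0.48 and -0.15. Of 6 markers of muscle and brown fat, Ckm and Ucp1 were not well above background, Myl1 (1.58 and 1.83) and Cidea (0.59 and 0.97) were higher in TDAG51-/-, Myh4 was lower (-0.36 and -0.38), Acta1 was on opposite sides (0.08 and -0.11), and the summed normalized intensity of the list was 6889 and 7112 in TDAG51-/-, 5236 in TDAG51+/+ and 4803 in TDAG51-/-Tg2. Their part in the isoform values was not tested.

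In complex V, Atp5j2, subunit f of the membrane domain, was lowest. It read 1238 in TDAG51-/- and 3388 in TDAG51+/+, a 2.74-fold difference, and 1259 in TDAG51-/- and 1883 in TDAG51-/-Tg2, a 1.49-fold difference (log2 ratios -1.45 and -0.58). All 3 small membrane subunits measured, Atp5j2, Atp5k and Atp5l, were below 0 in both comparisons. The 3 measurable c-ring probes were also below 0, with medians of -0.26 and -0.23. The 8 probes of the catalytic head (Atp5a1, Atp5b, Atp5c1, Atp5d and Atp5e) had medians of -0.19 and 0.09. These values depended on the scaling. With median centring the medians were -0.53 and -0.29 for the head, -0.58 and -0.52 for the c-ring, and -0.65 and -0.57 for the small membrane subunits. The 3 probes of Atp5f1, subunit b of the stalk, lay on both sides of 0. The brightest (chr3:105761241-105761300) gave -0.03 and 0.37 and one that spans an intron in mm7 -0.52 and -0.47. The dimmest (chr3:105777016-105777075) gave 0.51 on array 1, and on array 2 it was near background in TDAG51-/-Tg2 and brighter in TDAG51-/- by at least 2.04-fold.

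**Figure D4:**
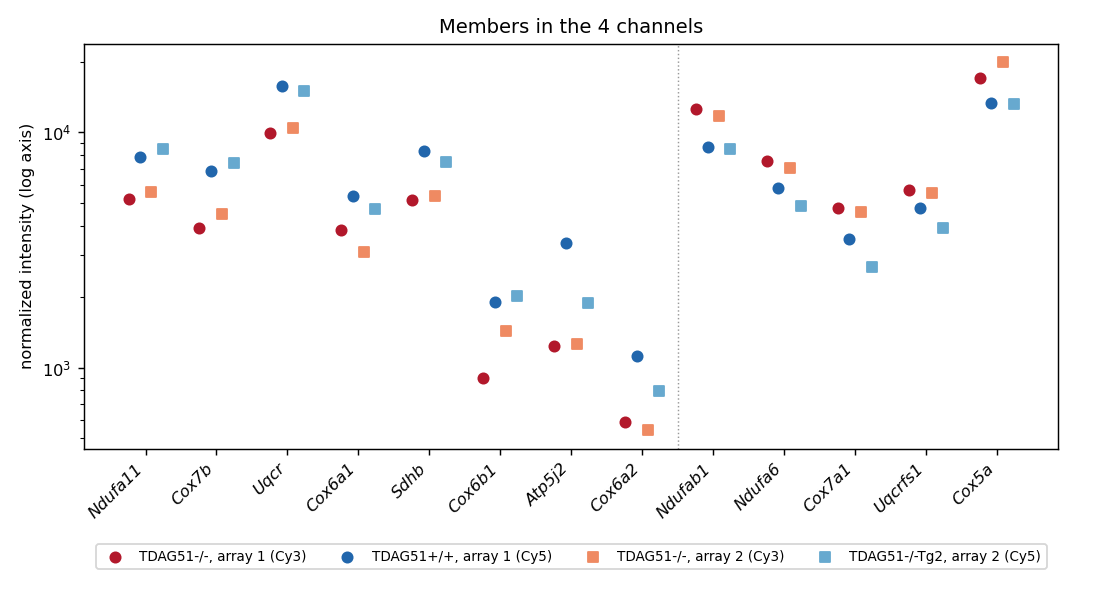
Normalized intensity (log axis) of 13 members, chosen after their values were seen, in the 4 channels, 1 probe for each gene and 1 point for each channel, red and orange for TDAG51-/- and dark and light blue for TDAG51+/+ and TDAG51-/-Tg2. In the 8 genes left of the dotted line both TDAG51-/- points lie below both control points, and in the 5 to the right both lie above.

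Different probes of a gene often differed by more than the spread between spots. Among 22 genes with at least 2 measurable probes, the range between a gene's probes had a median of 0.23 log2 units against TDAG51+/+ and 0.36 against TDAG51-/-Tg2, and reached 1.05 and 1.73, both in Ndufs4. In 3 genes (Ndufab1, Ndufs4 and Atp5f1) probes lay on opposite sides of 0 by more than 0.3 in both comparisons, and in each the dimmest probe, named by a cDNA accession, lay on the other side of 0 from at least 1 other probe. The 13 measurable probes named by other than a RefSeq accession had medians of 0.20 and 0.24, and the 95 RefSeq probes -0.26 and -0.07. The 2 kinds also differed in brightness. Their median mean intensity in TDAG51-/- on array 1, measurable or not, was 228.3 over 14 probes and 9814 over 101. Kind of accession and intensity cannot be told apart here.

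**Figure D5:**
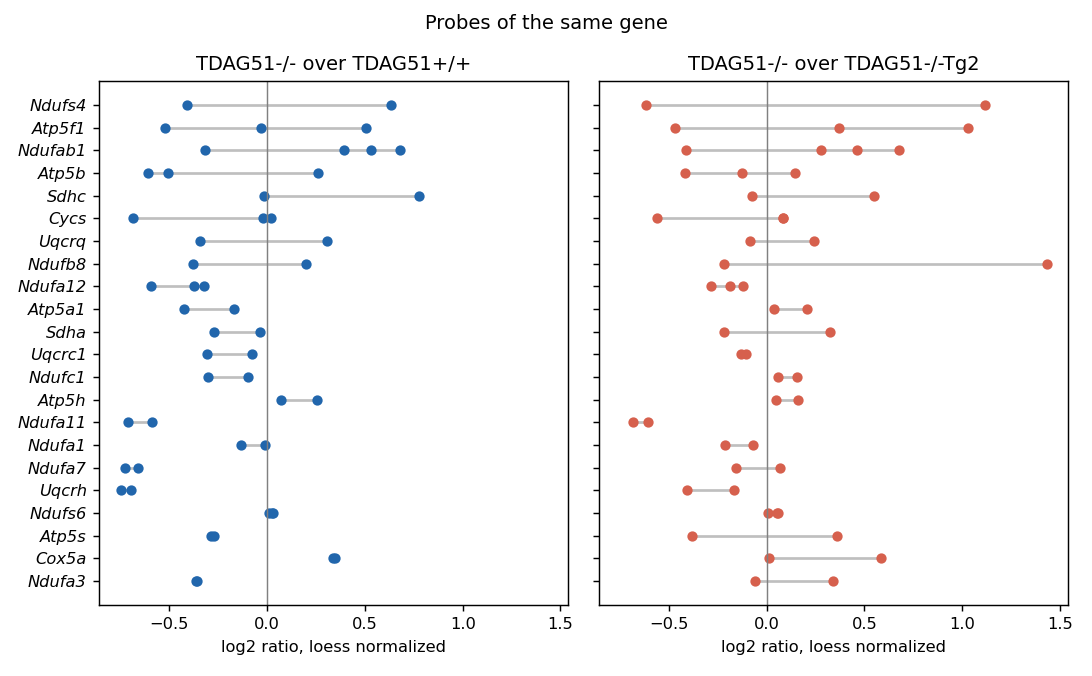
Log2 ratio of every measurable probe of the 22 genes with more than 1, over TDAG51+/+ (left) and over TDAG51-/-Tg2 (right), with 1 point for each probe and a grey line from the lowest to the highest. Ndufs4 spans 1.05 on the left and 1.73 on the right, and the 3 points of Ndufs6 lie within 0.1 of one another.

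Set side by side across arrays, the difference of the members between TDAG51-/-Tg2 and TDAG51+/+ depended on the route. Their log2 difference in Cy5, TDAG51-/-Tg2 over TDAG51+/+, had a median of -0.08 (SD 0.30 over 108 probes, 72 of them below 0). Taken through the TDAG51-/- channel of each array, a route chosen after seeing the data, the median was -0.19, with 80 below 0. The difference between the TDAG51-/- channels of array 2 and array 1 had a median of 0.07 (SD 0.27). Channel levels were built by splitting each probe's log2 ratio evenly around its mean intensity, which was scaled to a common distribution on both arrays. At equal mean intensity, a ratio that differs between arrays therefore moves the Cy3 and Cy5 levels in opposite directions. The median shifts in Cy3 and Cy5 are thus not independent, and 0.07 cannot be told apart from this effect of the scaling. Over all measurable probes the SD was 0.58 between the controls and 0.20 between the TDAG51-/- channels. The largest differences between the controls were in Ndufb8, whose dim probe was 1.21 lower in TDAG51-/-Tg2 on the log2 scale (TDAG51-/- channels 0.02 apart), Cox7a2l, a factor for the joining of complexes into supercomplexes, which was 0.88 higher, and Atp5j2, which was 0.85 lower (TDAG51-/- channels 0.02 apart). For Cox7a2l the TDAG51-/- channels differed more, by 1.06, with 7522 on array 1 and 15722 on array 2.

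Other genes of the pathway were counted from lists of its assembly, fuel supply and control, with 1 probe for each gene. Of 15 measurable assembly factors, 1 was at least 1.5-fold lower in both comparisons, where 5.44% of all probes were. This was Bcs1l (-0.72 and -0.61), which inserts the Rieske protein into complex III. The list had 0 genes at least 1.5-fold higher in both, where 7.9% of all probes were, and medians of -0.11 and -0.34. Tmem126b and Acad9 were higher (0.38 and 0.96, and 0.68 and 0.34), while 9 of the 15 were below 0 in each comparison, where 48.4% and 48.5% of all probes were. The 13 TCA cycle genes had medians of 0.01 and 0.19 and included none at least 1.5-fold apart in both, with citrate synthase (Cs) at -0.49 and -0.43, Suclg1 at 0.01 and 0.70 and Dld at 0.12 and 0.57. The 8 measurable genes of pyruvate entry had medians of 0.11 and 0.01, with Pdk3 at 0.35 and 0.71, Pdk1 at -0.36 and -0.56 and Dlat at 0.26 and 0.55. The ATP synthase inhibitor Atpif1 gave -0.11 and -0.07, and Higd2a and Higd1a, linked to supercomplexes, 0.27 and 0.16, and -0.06 and 0.55.

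The 10 measurable carriers and pores had medians of -0.19 and -0.13. The mitochondrial glutamate carrier Slc25a22 stood apart, at 683.5 in TDAG51-/- and 10105 in TDAG51+/+ (-3.89), but 763.8 in TDAG51-/- and 831.9 in TDAG51-/-Tg2 (-0.12), so that only the TDAG51+/+ value was high. The ADP/ATP carrier Slc25a4 gave -0.46 and -0.75 and Vdac1 -0.36 and -0.14. Of 13 creatine and glycolysis genes on the array, 4 (Aldoa, Aldoc, Eno2 and Pgk1) were saturated. Of the 9 measurable, 8 were below 0 in each comparison (medians -0.18 and -0.41), where 48.4% and 48.5% of all probes were. Only Ldha was at least 1.5-fold lower in both (-0.91 and -0.73), where 5.44% of all probes were. Hk1 stood at -0.69 and -0.47 and mitochondrial creatine kinase Ckmt1 at -0.43 and -0.41. The 11 measurable regulators had medians of 0.23 and 0.27, with Tfb1m at -0.58 and -0.62 and Tfb2m and Gabpb1, a partner of GABPA, at 0.31 and 0.45, and 0.46 and 0.27. With median centring the regulators kept positive medians (0.21 and 0.27), whereas those of the TCA cycle and pyruvate entry lists became -0.23 and -0.11, and -0.04 and -0.08.

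Blood markers differed between the samples and not by genotype alone: Hba-a1, a hemoglobin chain, read 2672 in TDAG51-/- and 28608 in TDAG51+/+ on array 1, and 43820 in TDAG51-/- and 18794 in TDAG51-/-Tg2 on array 2. All 8 microglial markers were below 0 in both comparisons (medians -0.67 and -0.75), where 11380 of all 32708 measurable probes were. The 4 measurable neuronal markers had medians of -0.11 and -0.06 and went both ways. They ranged from -0.56 to 0.37 against TDAG51+/+ and from -1.29 to 0.80 against TDAG51-/-Tg2. Myelin (7 measurable) gave -0.27 and 0.26, astrocytes (6) -0.05 and 0.13, endothelium (6) 0.42 and -0.02, and choroid plexus (6) 0.70 and 0.49. The choroid plexus genes also went both ways, from -1.41 to 1.60 against TDAG51+/+ and from -0.12 to 1.17 against TDAG51-/-Tg2. The part of these markers in the members' values was not tested.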

How the data were processed

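Whole brain RNA was hybridized to 2 arrays of 1 slide, Agilent's mouse 4x44k design with 2 dyes. The authors deposited Agilent Feature Extraction 9.5.3.1 output with mean and background intensity for each spot in each dye, a log10 ratio of Cy5 over Cy3 and, in a separate table, a log2 ratio, which here matched the scanner's Cy3 over Cy5 (median absolute difference 0.0059 and 0.0058). How the deposited log2 ratio was normalized is not given in the sources used here. Probe coordinates are from the files, on mm7. Columns with the scanner's p-value were not used.

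Spots that were controls or outliers (375 and 300 of the latter) were removed. Background was corrected by normexp with an offset of 50 and each array was loess normalized with limma 3.58.1 in R 4.3.3 (version 1.17.8 of data.table), and spots of a probe were averaged. Levels by channel followed Aquantile scaling. Counts and medians were computed in Python 3.11.15 with pandas 2.3.3, numpy 2.4.6 and scipy 1.17.1, and plots were drawn with matplotlib 3.10.9. The code was run on simulated data with known folds and a dye factor that was the same at all intensities. That simulation does not bear on the loess shift at high intensity, on which the size of the members' medians depends. The number of arrays limits the precision, and no test was run. Where 1 channel was not well above background, or the brighter was saturated, the fold is a bound. A dim channel was set to its own level or, if higher, to the lowest level among probes well above background in that channel. A saturated channel was taken at its own level. Normexp with an offset draws the folds of dim probes toward 0.

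Of 83 genes, 81 were matched to RefSeq (GRCm38.p6) by accession and 2 by symbol. The members, the gene lists and the rule for named genes were chosen with earlier results of these data known. The rule took Phlda1, the highest and lowest probe of each complex, members at least 1.5-fold apart in the same direction in both comparisons, genes whose probes opposed each other by over 0.3 in both, isoforms with a restricted distribution, Cycs and Cyc1, the 3 largest differences between the controls, and up to 3 genes of each other list. Ndufa6, Ndufc2, Ndufs6, Sdhd, Uqcrh, Cox5a and the saturated genes were named after their values were seen. Ndufa4l2 was not analysed here.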

Additional observations from a re-analysis of the deposited data

How the results depend on the processing

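The members' medians stayed below 0 under every alternative, but their size did not. With median centring they were -0.48 against TDAG51+/+ and -0.29 against TDAG51-/-Tg2, and without normalization -0.67 and -0.54, and the loess shift at high intensity is what these settings leave out. The count of member probes at least 2-fold apart from TDAG51+/+, 2 with loess, was 4 with offset 0, 5 with plain background subtraction, 7 with median centring, 20 without normalization, 7 by the scanner's log ratio and 7 by the deposited log2 ratio. Against TDAG51-/-Tg2 it was 3, and 5 without normalization, 1 with probes well above background in both channels, 0 with the brightest probe or the median of probes for each gene, and 0 with RefSeq probes alone, a setting chosen after seeing the data. All 3 of these probes had cDNA accessions. The difference of TDAG51-/-Tg2 from TDAG51+/+ had a median of -0.08. It was -0.19 when taken through the TDAG51-/- channel of each array, a route also chosen after seeing the data. With quantile normalization of each dye it was -0.08, and with median scaling of each channel -0.12. Medians of complexes changed sign against TDAG51-/-Tg2 in complex II (-0.08 with median centring), complex III (0.07 with 1 median for each gene), complex V (0.00 by the scanner's ratio) and cytochrome c (-0.24 with median centring), and against TDAG51+/+ for cytochrome c (0.05 by the deposited ratio). The share of member probes saturated in Cy5, 4.35% on array 1 and 2.61% on array 2, was the same with a mean signal of at least 60000 as the criterion. Counted as genes with a saturated probe, it was 4.82% and 2.41%. No paired analysis was possible because each comparison has 1 array. Leaving out an array would leave no comparison. Saturation of the brightest probes and the background under the dimmest limit what could be read.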
